A study of Mus musculus with 12 samples.

Results

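Translation initiation factors and aminoacyl-tRNA synthetases were followed in thioglycollate-elicited peritoneal exudate cells (PECs), the macrophage-rich cells that are drawn to the mouse peritoneum by an irritant broth. Members were chosen by symbol alone: names beginning with Eif and a digit from 1 to 6, except the interferon-induced kinase Eif2ak2, and the names of tRNA synthetases formed from an amino acid letter and "ars". The rule found 87 of the 12850 listed genes, 53 initiation factors and 34 synthetases, and all 87 passed the filter on low values. The 53 are all genes with an Eif symbol and are called initiation factors for short. They include regulators of these factors: 3 eIF2 kinases and 4 genes for 4E-binding proteins and the 4E transporter. Expression was measured by RNA-seq in PECs from wild type (WT) C57BL/6 mice and from Zc3h12a S513A/S513A knock-in mice (S513A), in which a serine of the RNase Regnase-1 is replaced by alanine in every cell of the body. Cells of each genotype were left unstimulated (0 hr) or received 100 ng/ml of lipopolysaccharide (LPS), a component of bacterial membranes, for 4 or 8 hr. The 6 groups held 2 libraries each, 12 in all, and the LPS dose and the way of eliciting the cells were the same in both genotypes.

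Initiation factors bring the small ribosomal subunit, the initiator tRNA and a capped mRNA together. eIF2 carries the initiator tRNA and is recharged by eIF2B, the eIF2 kinases block that recharging under stress, the eIF4 factors bind and unwind the cap end of the mRNA, and the 4E-binding proteins hold back the cap-binding factor eIF4E. Aminoacyl-tRNA synthetases join each amino acid to its tRNA, some in the cytosol, some in mitochondria and some in both. Genes for enzymes of both places are counted here with the cytosolic synthetases. In macrophages, LPS starts a large output of secreted proteins, and the synthesis of these proteins draws on the initiation factors and the cytosolic synthetases.

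A library held between 9525979 and 12439960 reads in the listed genes, of which 0.869% to 0.990% fell on the 87 members. Levels are given as log2 CPM, the log2 of reads scaled to an effective library size, and a member's reads ran from 17 for Vars2 and Eif3j2 in their lowest libraries to 18761 for Eif4g2 in its highest. All 7 macrophage markers (Adgre1, Cd68, Csf1r, Lyz2, Itgam, Cd14 and Mertk) were listed, summing to between 16650 and 27790 CPM. B cell markers summed to at most 25.9 CPM, and T cell, mast cell and mesothelial markers to at most 3.84 CPM in any library. Neutrophil markers summed to 660 to 746 CPM at 0 hr and 362 to 689 CPM after LPS, and eosinophil markers to 15.3 to 18.5 CPM at 0 hr and 3.62 to 4.58 CPM at 8 hr. Ly6g and Epx, which define these cells, were not among the listed genes, and the part of these cells in the changes with LPS was not tested. In whole cell samples of this kind, fewer cells of a type and less RNA per cell cannot be told apart. No label says whether the 2 libraries of a group came from separate mice or cultures, so p values measure the spread between these libraries.

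The mean log2 CPM of the cytosolic ribosomal protein genes differed between libraries of a group. It was 7.17 and 7.79 in WT at 0 hr, 8.31 and 8.08 in S513A at 0 hr, and 6.79 and 7.74 in S513A at 8 hr. In the other 3 groups it lay between 7.46 and 8.45. Among the members, the SD of the difference between the 2 libraries of a group was 0.15 in WT at 0 hr, 0.36 in WT at 4 hr and 0.46 in S513A at 8 hr. A few members with a wide gap set part of that spread: Lars2, the mitochondrial leucyl-tRNA synthetase, read 8.91 in the first S513A library at 8 hr against 5.51 to 6.75 in the other 11, and Eif3j2 read 0.55 in the second S513A library at 0 hr against 2.43 to 3.51 elsewhere (both singled out after their values were seen). Without Lars2 and Eif3j2 the SD was 0.33 in WT at 4 hr and 0.29 in S513A at 8 hr.

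Before LPS, levels per length differed widely between roles. Expressed as CPM per kilobase of exon (mean of the WT and S513A group means at 0 hr), the RNA helicase Eif4a1 stood highest at 416, followed by Eif5a, which helps ribosomes past difficult sequences, at 252 and the eIF3 subunit Eif3h at 131. The median of the 14 eIF3 genes was 61.9, that of the 17 cytosolic synthetases 17.4, that of the 5 eIF2B genes 7.84 and that of the 17 mitochondrial synthetases 3.18. Cytosolic synthetases ranged from 6.78 to 56.5 on this scale and mitochondrial ones from 0.445 to 13.8, so the ranges overlapped although the medians lay apart.

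The question of the first comparison is which members LPS changed by 4 hr. In the mean of the genotypes, 29 of the 87 members rose and 16 fell at 4 hr against 0 hr (limma, adjusted p under 0.05), beside 29.1% of all 11885 genes tested that rose and 26.7% that fell. The members called higher make up 29 of 87 and those called lower 16 of 87, so the share that rose was near the background and the share that fell was below it. The median log2 fold change was 0.18 over the members and 0.02 over all genes. This split depends on the scale: when libraries were scaled by the sum of their reads, which lowers the median of all genes by 0.25 at 4 hr and by 0.17 at 8 hr, 16 members rose and 27 fell at 4 hr, and with quantile normalization 24 rose and 23 fell. Shares of all genes called under these other scalings are not given, here or below. Counts under them therefore cannot be read as particular to the members. In 28 members every library at 4 hr lay above every library at 0 hr and in 16 every one lay below, where all genes gave 25.7% and 23.4%.

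At 4 hr 21 initiation factors rose and 7 fell, 8 cytosolic synthetases rose and 3 fell, and among the mitochondrial synthetases none rose and 6 fell (limma, with 9 of 17 at an unadjusted p under 0.05 in either direction). The 7 initiation factors that fell include 2 eIF2 kinases and 1 gene for a 4E-binding protein, which act against initiation. Without the second WT library at 4 hr, 2 mitochondrial synthetases rose. With scaling by the sum of reads these counts were 12 and 12, 4 and 5, and 0 and 10, and with quantile normalization 16 and 13, 6 and 4, and 2 and 6. No test compared the roles.

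**Figure D1:**
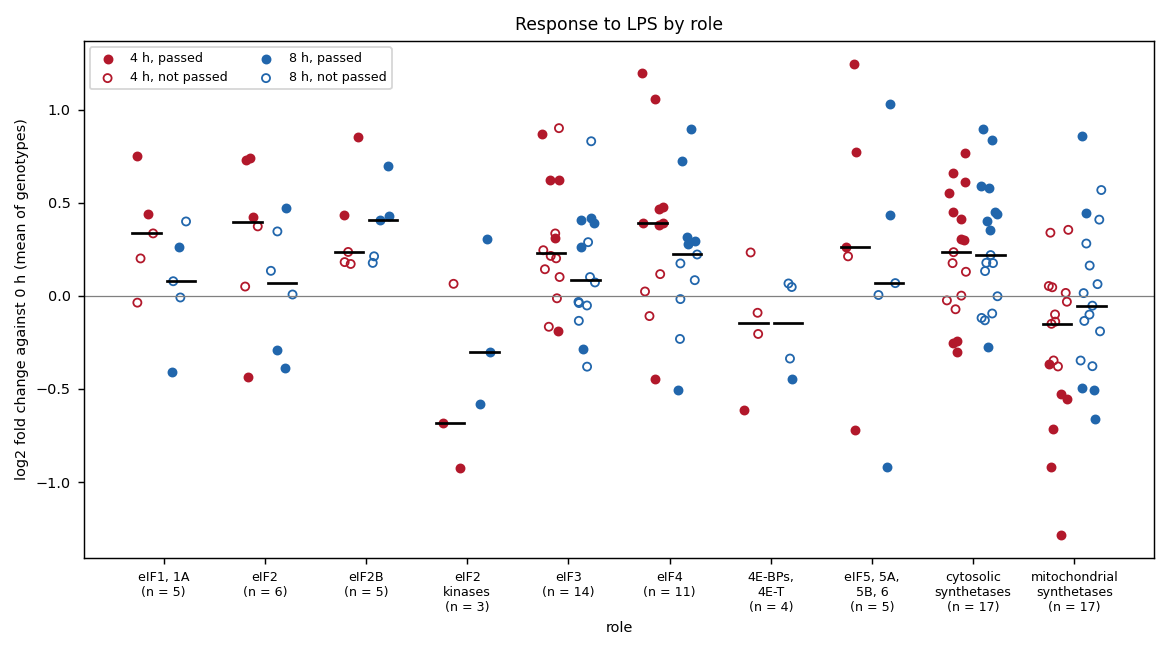
Log2 fold change against 0 hr (mean of the genotypes, vertical axis) of each of the 87 members, grouped by role (horizontal axis), at 4 hr (red) and 8 hr (blue); filled points passed an adjusted p of 0.05 in limma and black bars are medians. Among the mitochondrial synthetases no point is filled above 0 at 4 hr, and the eIF4 factors had a median of 0.39 at 4 hr.

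Of the 11 eIF4A, 4B, 4E, 4G and 4H genes, 7 rose and 1 fell at 4 hr, with a median log2 fold change of 0.39, and 3 rose and 2 fell with scaling by the sum of reads. Eif4g2 (chr7:111067750-111083030), which encodes a relative of eIF4G that supports initiation without eIF4E, read 9.52 and 9.50 in WT and 9.46 and 9.56 in S513A at 0 hr. It read 10.69 and 10.75 in WT and 10.72 and 10.67 in S513A at 4 hr. At 8 hr it read 10.33 and 10.38 in WT and 10.51 and 10.41 in S513A. The 3 time points did not overlap in any library, and Eif4g2 rose by 1.19 ± 0.07 (log2, SE) at 4 hr and 0.89 ± 0.07 at 8 hr (adjusted p = 2.03e-07 and 2.62e-06, limma).

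Eif4e (chr3:138526179-138559696), the cap-binding factor itself, read 6.06 and 6.15 in WT and 6.28 and 6.33 in S513A at 0 hr. At 4 hr it read 7.38 and 6.81 in WT and 7.27 and 7.59 in S513A, and at 8 hr 6.86 and 7.10 in WT and 6.70 and 7.05 in S513A. Every LPS library lay above every unstimulated library. Its log2 fold change was 1.06 ± 0.14 at 4 hr and 0.73 ± 0.14 at 8 hr. The scaffold Eif4g1 differed by 0.47 ± 0.13 at 4 hr, with WT at 8.56 and 9.12 at that time, and the log2 fold change was 0.06 under quantile normalization and 0.21 with scaling by the sum of reads, neither of which passed the test. Eif4e3, an alternative cap-binding protein, gave 0.38 ± 0.08 at 4 hr, a call that ended with scaling by the sum of reads (0.13). The helicase Eif4a1, highest of all at 0 hr, gave 0.12 ± 0.13 and did not pass.

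Eif4b, the cofactor of the eIF4A helicase, fell. Its 4 libraries at 0 hr read 7.88 to 7.94, those at 4 hr 7.36 to 7.53 and those at 8 hr 7.37 to 7.46. The unstimulated libraries were all above the LPS libraries, and the log2 fold change was -0.45 ± 0.07 at 4 hr and -0.51 ± 0.07 at 8 hr. Of the 4 genes for 4E-binding proteins and the 4E transporter, 1 fell at 4 hr and none rose. That gene was Eif4ebp2, a repressor of eIF4E, at 5.73 and 5.64 in WT and 5.43 and 5.51 in S513A at 0 hr, 4.94 and 5.36 in WT and 4.88 and 4.67 in S513A at 4 hr, and 4.99 to 5.36 in the 4 libraries at 8 hr. All LPS libraries lay below all unstimulated ones, and Eif4ebp2 fell by 0.61 ± 0.11 at 4 hr and by 0.45 ± 0.11 at 8 hr. Eif4ebp1, its better known relative, gave -0.20 ± 0.17 at 4 hr and did not pass.

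Because 7 of 11 genes of the eIF4 group rose together, the promoter table from RefSeq (GRCm38.p6) was searched in the 250 bases before each start. It held 66 of the 87 members. The letters CACGTG, the E-box that Myc and related factors bind, read the same on both strands and stood there in 4 of the 9 eIF4 genes with a promoter in the table (Eif4a1, Eif4e, Eif4g1 and Eif4h), in 11 of 66 members and in 6.86% of all 27025 genes in the table. Of the 4, Eif4a1 did not pass the test at 4 hr, and Eif3f and Eif5a2, which fell, also hold these letters. Genes with several starts had more bases searched, up to 6 starts for a member, and other letters were also looked at. The 2 windows below show the E-box of genes with 1 start each, in capitals, on the gene's strand; Eif4a1 is chr11:69672528-69672627 (minus strand) and Eif4g1 is chr16:20672620-20672719 (plus strand).
Eif4a1: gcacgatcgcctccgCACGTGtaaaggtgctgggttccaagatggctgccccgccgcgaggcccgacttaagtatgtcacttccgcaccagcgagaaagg
Eif4g1: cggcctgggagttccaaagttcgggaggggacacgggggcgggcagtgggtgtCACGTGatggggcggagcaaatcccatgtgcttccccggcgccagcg
In Eif4a1 the letters begin 189 bases before the start and in Eif4g1 54 bases before it. A match is a string in the sequence, and binding was not measured.

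**Figure D2:**
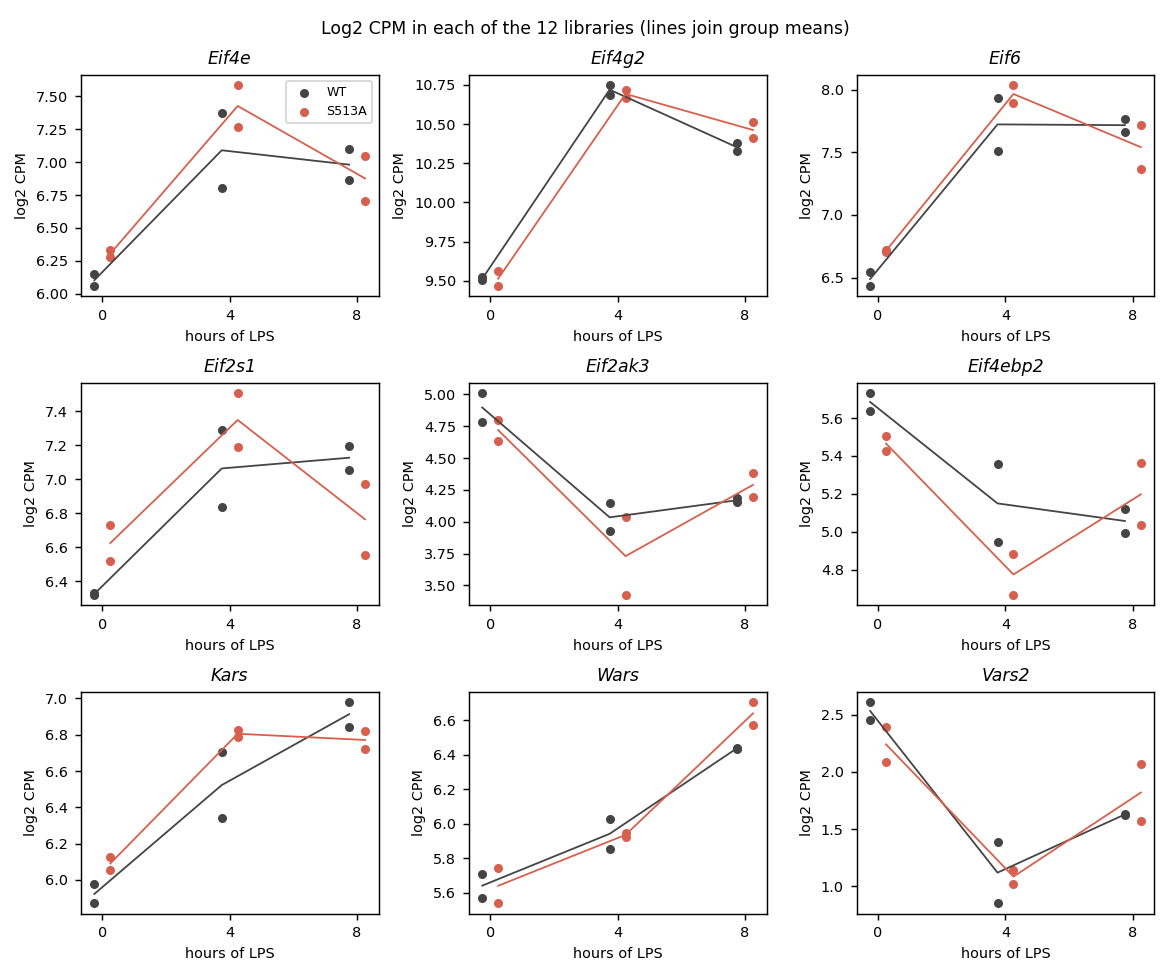
Log2 CPM (vertical axes) of 9 members at 0, 4 and 8 hr of LPS (horizontal axes) in each library of WT (dark grey) and S513A (red), 2 per group, with lines through the group means. Eif4e, Eif4g2, Eif6 and Kars lie above their unstimulated level in every LPS library, Eif2ak3, Eif4ebp2 and Vars2 below it, and Wars is highest at 8 hr.

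Of the 6 genes for eIF2 subunits and relatives, 3 rose and 1 fell at 4 hr. Eif2s1, the alpha subunit that the eIF2 kinases phosphorylate, read 6.32 and 6.33 in WT and 6.52 and 6.73 in S513A at 0 hr, and 7.29 and 6.84 in WT and 7.19 and 7.51 in S513A at 4 hr. The times did not overlap, with a log2 fold change of 0.73 ± 0.13. At 8 hr it read 7.05 and 7.20 in WT but 6.56 and 6.97 in S513A, which overlaps the unstimulated S513A libraries, and the change of 0.47 ± 0.13 did not pass with quantile normalization (0.28) or without the first S513A library at 0 hr (0.42). The beta subunit Eif2s2 rose by 0.74 ± 0.14 at 4 hr, when its libraries read 7.03, 6.50, 6.76 and 7.26 against 5.85 to 6.42 at 0 hr. The gamma subunit has an X-linked and a Y-linked copy, Eif2s3x and Eif2s3y, whose reads the counting could split between them, so both values are uncertain. Eif2s3x gave 0.42 ± 0.07, which became 0.17 and did not pass with scaling by the sum of reads, and Eif2s3y, which was read in all 12 libraries at 4.95 to 6.10, gave 0.37 ± 0.15 and did not pass. Eif2d, which can deliver the initiator tRNA in place of eIF2, fell from 4.09 to 4.23 at 0 hr to 3.65 to 3.89 at 4 hr, a fall of 0.43 ± 0.09, and stayed at 3.69 to 3.85 at 8 hr.

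eIF2B, the exchange factor that recharges eIF2, had 2 of 5 subunit genes higher at 4 hr and 3 of 5 at 8 hr, and none lower. Eif2b3, its gamma subunit, read 3.33 and 3.51 in WT and 3.92 and 3.79 in S513A at 0 hr. It read 4.56 and 4.17 in WT and 4.46 and 4.77 in S513A at 4 hr, and 4.26 and 4.58 in WT and 3.97 and 4.53 in S513A at 8 hr. The lowest LPS library was above the highest unstimulated one, and Eif2b3 rose by 0.85 ± 0.15 and 0.70 ± 0.15. Eif2b1 rose by 0.43 ± 0.09 at both times, of which the call at 4 hr ended with scaling by the sum of reads (0.18). Eif2b4 gave 0.17 ± 0.09 at 4 hr without passing and rose by 0.41 ± 0.09 at 8 hr. Without the second WT library at 4 hr, whose ribosomal protein mean was the lowest of the 4 hr libraries, all 5 eIF2B genes were called at 4 hr.

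Of the 3 eIF2 kinases 2 fell and none rose at 4 hr, with 2 at an unadjusted p under 0.05 in limma. Eif2ak3 (PERK), which senses misfolded protein in the endoplasmic reticulum, read 4.78 and 5.01 in WT and 4.64 and 4.80 in S513A at 0 hr. It read 3.92 and 4.15 in WT and 4.03 and 3.43 in S513A at 4 hr, and 4.15 to 4.38 in the 4 libraries at 8 hr. All 8 LPS libraries were lower than all 4 unstimulated ones, a fall of 0.93 ± 0.13 at 4 hr and 0.58 ± 0.13 at 8 hr. Eif2ak4 (GCN2), which senses uncharged tRNA, read 4.69 to 4.93 at 0 hr and 3.81 to 4.42 at 4 hr, a fall of 0.68 ± 0.09. By 8 hr it stood at 4.48 and 4.26 in WT and 4.75 and 4.52 in S513A, overlapping the unstimulated range, with a change of -0.30 ± 0.09 against 0 hr that ended when any of 6 of the 8 libraries in that comparison was left out. Eif2ak1 (HRI), the heme-regulated kinase, did not pass at 4 hr (0.06 ± 0.07). At 8 hr its libraries read 6.20 to 6.30 against 5.87 to 5.99 at 0 hr, a change of 0.31 ± 0.07 that became 0.17 and 0.14 and did not pass under quantile normalization and scaling by the sum of reads.

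Of the 5 eIF1 and eIF1A genes, 2 rose at 4 hr. Eif1 (chr11:100319885-100322096), which keeps the scanning ribosome from starting at a wrong codon, read 7.63 to 7.74 at 0 hr, 8.50, 8.30, 8.50 and 8.48 at 4 hr and 7.90 to 8.00 at 8 hr. The times did not overlap, with a log2 fold change of 0.75 ± 0.07 at 4 hr. The change of 0.26 ± 0.07 at 8 hr is not settled in direction, since quantile normalization gave -0.02. Eif1ax, the X-linked gene of the companion factor eIF1A, gave 0.44 ± 0.16 at 4 hr, a call that ended under quantile normalization (0.27), with scaling by the sum of reads (0.19) and without any of 6 libraries. Eif1b, a close copy of Eif1, gave -0.04 ± 0.15 at 4 hr and -0.41 ± 0.15 at 8 hr. In S513A at 8 hr it read 4.91 and 5.40 against 5.55 and 5.58 in WT, and the call at 8 hr ended without any of 7 of the 8 libraries in that comparison.

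eIF3, the largest factor, which ties the small subunit to eIF4G, had 4 of 14 genes higher and 1 lower at 4 hr, with a median of 0.23. With quantile normalization the counts were 4 and 4 and the median was -0.01, and without the second WT library at 4 hr 7 genes rose. Eif3j1, a loosely bound subunit, rose by 0.87 ± 0.12 (4.94 and 5.07 in WT and 5.12 and 5.39 in S513A at 0 hr, 6.16 and 5.77 in WT and 5.88 and 6.20 in S513A at 4 hr). Its near copy Eif3j2 gave 0.90 ± 0.42 and did not pass, and reads may be shared between them. Eif3c, a core subunit, read 7.71 to 7.88 at 0 hr, 8.25 to 8.50 at 4 hr and 8.13 to 8.23 at 8 hr. Neither LPS group overlapped the unstimulated libraries, and Eif3c rose by 0.62 ± 0.07 at 4 hr and 0.39 ± 0.07 at 8 hr, the second of which became 0.12 and did not pass under quantile normalization. Eif3g, an RNA-binding subunit, rose by 0.62 ± 0.13 at 4 hr. The remaining 10 genes, which include Eif3d among the risers and Eif3f as the gene called lower, lay between -0.19 and 0.33. The call of Eif3f ended without any of 6 libraries.

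Among the 5 genes for eIF5, 5A, 5B and 6, 3 rose and 1 fell at 4 hr. Eif6 (chr2:155819832-155826925), which keeps the large subunit from joining too early, gave the widest change among the members that passed in this direction. Eif6 read 6.55 and 6.43 in WT and 6.72 and 6.71 in S513A at 0 hr. It read 7.93 and 7.51 in WT and 7.89 and 8.04 in S513A at 4 hr, and 7.66 and 7.77 in WT and 7.37 and 7.72 in S513A at 8 hr. No LPS library came within 0.5 of an unstimulated one, and the change was 1.24 ± 0.11 at 4 hr (2.37-fold, adjusted p = 3.01e-06, limma) and 1.03 ± 0.11 at 8 hr. Eif5, the partner of eIF2 that releases it from the ribosome, read 7.36 to 7.49 at 0 hr and 8.13 to 8.25 at 4 hr, and rose by 0.77 ± 0.07. At 8 hr it gave 0.43 ± 0.07, which became 0.17 and did not pass under quantile normalization. Eif5a2, the rarer copy of Eif5a, read 2.97 to 3.39 at 0 hr, 2.31 and 2.83 in WT and 2.23 in both S513A libraries at 4 hr, and 1.86 to 2.38 at 8 hr. All LPS libraries were lower, with falls of 0.72 ± 0.16 and 0.92 ± 0.16. Eif5a itself gave 0.21 ± 0.12 at 4 hr and 0.07 ± 0.12 at 8 hr and passed at neither.

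Of the 17 cytosolic synthetases, 8 rose and 3 fell at 4 hr and 8 rose and 1 fell at 8 hr. With scaling by the sum of reads 4 rose and 5 fell at 4 hr and 6 rose and 4 fell at 8 hr, and with quantile normalization 6 rose and 4 fell at each time. On the deposited scale at least 8 rose at both times whichever library was left out. The 3 that fell at 4 hr became none without the first WT or the first S513A library at 0 hr, and 1 without the second WT library at 4 hr or the second S513A library at 0 or 4 hr. Kars (chr8:111993443-112011323), for lysine, read 5.87 and 5.97 in WT and 6.13 and 6.05 in S513A at 0 hr. It read 6.70 and 6.34 in WT and 6.79 and 6.83 in S513A at 4 hr, and 6.84 and 6.98 in WT and 6.72 and 6.82 in S513A at 8 hr. All LPS libraries were higher, by 0.66 ± 0.09 at 4 hr and 0.84 ± 0.09 at 8 hr. Rars, for arginine, read 6.34 to 6.50 at 0 hr, 6.90 to 7.44 at 4 hr and 6.81 to 7.12 at 8 hr, a rise of 0.77 ± 0.10 and 0.58 ± 0.10.

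Wars (chr12:108860030-108894174), for tryptophan, is known as an interferon-induced gene. It read 5.71 and 5.57 in WT and 5.54 and 5.74 in S513A at 0 hr, 5.85 and 6.03 in WT and 5.92 and 5.95 in S513A at 4 hr, and 6.44 in both WT libraries and 6.71 and 6.57 in S513A at 8 hr. The 3 times did not overlap. The rise was 0.30 ± 0.08 at 4 hr, which became 0.14 and 0.04 under quantile normalization and scaling by the sum of reads and did not pass there, and 0.90 ± 0.08 at 8 hr. From 4 to 8 hr it rose by a further 0.60 ± 0.08 (adjusted p = 0.000421, limma), where Vars also rose (0.46 ± 0.13) and Rars gave -0.19 ± 0.10 and did not pass. In WT, Vars overlapped between these times, at 4.84 and 5.43 at 4 hr and 5.33 and 5.28 at 8 hr. S513A read 4.90 and 4.92 for Vars at 4 hr and 5.85 and 5.48 at 8 hr. Aars, for alanine, rose by 0.55 ± 0.09 at 4 hr, from 6.53 to 6.73 at 0 hr to 7.02 to 7.25. Gars, for glycine, rose by 0.45 ± 0.08, from 6.04 to 6.14 to between 6.45 and 6.66, a call that ended with scaling by the sum of reads (0.20). Dars, for aspartate, gave -0.26 ± 0.10, a call that ended without any of 9 libraries.

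Several cytosolic synthetase genes are known targets of ATF4, the transcription factor made when eIF2 is phosphorylated. The letters TGATGNAA, the core of its binding element, were found on either strand in the 250 bases before the start in 3 of the 10 cytosolic synthetases with a promoter in the RefSeq table, in none of the 14 mitochondrial ones, in 4 of 66 members and in 3.91% of all genes in the table. Shown here are Gars and Tars, for threonine, which rose by 0.41 ± 0.09 at 4 hr (named after its value was seen). The match, in capitals and on the strand opposite to the gene in each, lies within chr6:55037894-55037993 (plus strand) for Gars and within chr15:11399666-11399765 (minus strand) for Tars.
Gars: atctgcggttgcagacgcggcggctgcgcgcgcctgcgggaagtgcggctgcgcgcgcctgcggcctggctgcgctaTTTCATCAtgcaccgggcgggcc
Tars: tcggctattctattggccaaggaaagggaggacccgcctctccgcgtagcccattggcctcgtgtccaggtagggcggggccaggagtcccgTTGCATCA
The match begins 30 bases before the start in Gars and 15 in Tars. Kars has a promoter in the table without these letters and rose by 0.66 ± 0.09 at 4 hr; the promoters of Rars and Wars were not analysed here. The motif and the genes shown were picked with the values known, and binding was not measured.

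Of the 17 mitochondrial synthetases, 6 fell at 4 hr and none rose, with a median of -0.15. Genes for enzymes of both the cytosol and mitochondria are not among the 17. Vars2 (chr17:35655634-35667592), for valine, was counted with 17 to 79 reads per library. It read 2.45 and 2.61 in WT and 2.09 and 2.39 in S513A at 0 hr. It read 0.85 and 1.39 in WT and 1.15 and 1.02 in S513A at 4 hr, and 1.63 in both WT libraries and 2.06 and 1.57 in S513A at 8 hr. All LPS libraries lay below all unstimulated ones, at 8 hr by a margin of under 0.1, and Vars2 fell by 1.28 ± 0.18 at 4 hr and by 0.66 ± 0.18 at 8 hr.

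Nars2, for asparagine, read 2.76 and 2.73 in WT and 2.31 and 2.83 in S513A at 0 hr, 1.83 and 1.86 in WT and 1.38 and 1.87 in S513A at 4 hr, and 2.02 to 2.61 at 8 hr. It was lower in every library at 4 hr than at 0 hr, by 0.92 ± 0.16, and overlapped the unstimulated range at 8 hr. The other 4 that fell at 4 hr did so by 0.37 to 0.72. The cytosolic counterparts of these enzymes did not share the direction, since Vars gave 0.13 ± 0.13 and Nars -0.02 ± 0.07 at 4 hr and neither passed (both named after their values were seen). Ears2, for glutamate, read 2.15 and 2.12 in WT and 1.90 and 1.73 in S513A at 0 hr, and 2.72 and 2.79 in WT and 2.68 and 3.12 in S513A at 8 hr. It was higher in every library at 8 hr, by 0.86 ± 0.14, and at 4 hr its change of 0.34 ± 0.14 did not pass. Lars2 gave 0.57 ± 0.53 at 8 hr, which rests on the high library named above.

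**Figure D3:**
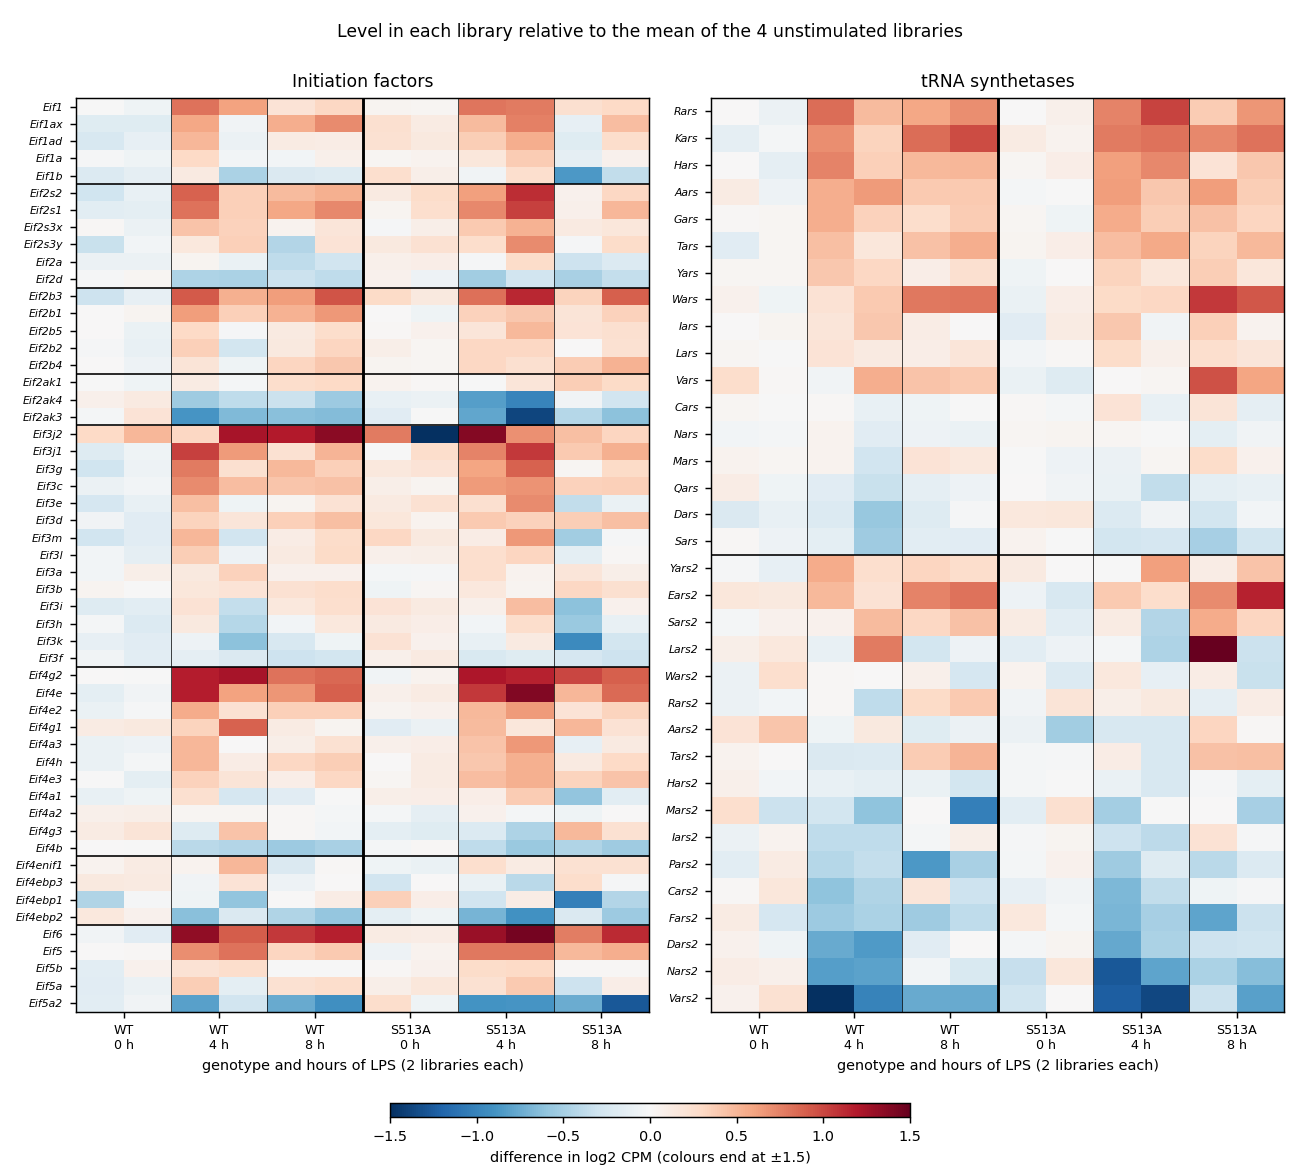
Level of each of the 87 members (rows, grouped by role and ordered by the change at 4 hr) in each of the 12 libraries (columns, 2 per genotype and time) as the difference in log2 CPM from the mean of the 4 unstimulated libraries; red is higher and blue lower, with colours ending at 1.5 either way. The rows of Eif6, Eif4g2 and Rars are red in all LPS columns, those of Eif2ak3, Eif4b and Vars2 are blue, and the lone dark red cell of Lars2 is the first S513A library at 8 hr.

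At 8 hr against 0 hr, 27 members rose and 13 fell in the mean of the genotypes, beside 24.5% of all genes that rose and 21.6% that fell. The median was 0.13 over the members and -0.00070 over all genes. With quantile normalization the counts were 17 and 22, and with scaling by the sum of reads 18 and 22, so the direction of the split turned here too. The median over all genes was -0.06 and -0.17 under these scalings. The shares of all genes called under them are not given, so the turn cannot be read as particular to the members. In 29 members every library at 8 hr was higher than every one at 0 hr and in 13 every one was lower (all genes 23.0% and 20.7%). The 4 and 8 hr comparisons share the unstimulated libraries, so their values stand side by side and are not independent. By role, 17 initiation factors rose and 9 fell, 8 cytosolic synthetases rose and 1 fell, and 2 mitochondrial synthetases rose and 3 fell. Of the 11 eIF4 genes 5 rose, which became 3 without the second WT library at 0 or 8 hr or the first S513A library at 0 hr.

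Between 4 and 8 hr, 11 members rose and 8 fell, beside 12.8% of all genes that rose and 12.8% that fell, and in 13 and 9 members the libraries of the 2 times did not overlap (all genes 11.9% and 11.7%). With quantile normalization 10 rose and 5 fell, and with scaling by the sum of reads 14 and 4. Of the initiation factors 2 rose and 8 fell, and of the synthetases 9 rose and none fell (limma, with 11 of the 34 synthetases at an unadjusted p under 0.05 in either direction), and no test compared the families. Leaving out each library in turn gave 0 to 3 initiation factors higher and 2 to 22 lower, and 4 to 9 synthetases higher and 0 to 1 lower. The factors that fell by 8 hr include Eif1 (-0.49 ± 0.07), Eif3j1 (-0.45 ± 0.12), Eif5 (-0.34 ± 0.07), Eif4g2 (-0.30 ± 0.07) and Eif3c (-0.23 ± 0.07), all of which had risen at 4 hr. Of the 9 synthetases that rose, 7 are mitochondrial, among them Vars2 (0.62 ± 0.18), Nars2 (0.57 ± 0.16) and Ears2 (0.52 ± 0.14). Eif2ak4 rose by 0.38 ± 0.09. These counts rest on few libraries. The 19 calls became 6 without the first WT library at 8 hr, 11 without the first S513A library at 8 hr, 11 without the second S513A library at 4 hr and 34 without the second WT library at 4 hr, and the 7 mitochondrial calls became 3 without the first WT library at 8 hr.

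The response was also fitted within each genotype. At 4 hr 25 members rose and 10 fell in WT (all genes 22.6% and 18.7%), and 23 rose and 12 fell in S513A (all genes 23.1% and 20.2%). Of the 35 called in each genotype 31 were called in both, which is 88.6% of either list, none with opposite signs, and these comparisons use separate unstimulated libraries. At 8 hr 26 rose and 7 fell in WT (all genes 19.4% and 14.9%), and 20 rose and 10 fell in S513A (all genes 20.9% and 19.0%). The genotypes shared 17 calls, 51.5% of the WT list and 56.7% of the S513A list, again with no opposite signs. The overlap over all genes is not given here for either time, so these shares cannot be read as particular to the members. All 45 members called in the mean of the genotypes at 4 hr, and all 40 called at 8 hr, had the same sign in both genotypes. They were chosen by that mean, which favours a shared sign, so this count does not measure agreement between the genotypes.

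Counts within a genotype follow the scale too, and the shares of all genes under the other scalings are not given. With scaling by the sum of reads 13 members rose and 22 fell in WT and 12 rose and 18 fell in S513A at 4 hr, and at 8 hr the counts were 10 and 17 in WT and 10 and 15 in S513A. With quantile normalization they were 15 and 16 in WT and 13 and 16 in S513A at 4 hr, and 16 and 11 in WT and 11 and 16 in S513A at 8 hr. These counts also lean on single libraries. The 35 calls in WT at 4 hr became 21 without the first WT library at 0 hr, and the 35 in S513A became 22 without the first S513A library at 0 hr, 23 without the second and 22 without the second S513A library at 4 hr. The 33 in WT at 8 hr became 15 and 16 without the first and the second WT library at 0 hr and 17 and 9 without the first and the second at 8 hr. The 30 in S513A at 8 hr became 11 and 12 without the first and the second S513A library at 0 hr and 14 without the first at 8 hr.

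The study made the S513A mice to ask what the loss of this serine in Regnase-1 does, and here the members were compared between the genotypes. The unstimulated libraries of these comparisons are also those of the LPS comparisons. At 0 hr no member was called (limma, 3 of 87 at an unadjusted p under 0.05), beside 0.0337% of all genes. At 4 hr none was called (4 at an unadjusted p under 0.05; 0.0168% of all genes), at 8 hr none (2; 0.0337% of all genes) and in the mean of the 3 times none (4; 0.0673% of all genes). A fit to the 0 hr libraries alone called 7 members, whereas voom weights called none in any of these comparisons. The share of all genes called by that fit is not given, so the 7 cannot be read as particular to the members. The 3 members with the smallest p in the mean of the times were Eif4e3 (S513A higher by 0.18 ± 0.07, adjusted p = 0.672, limma), Eif2s3y (higher by 0.28 ± 0.13, adjusted p = 0.741) and Dars (higher by 0.18 ± 0.08, adjusted p = 0.744). The 95% confidence interval of the Eif4e3 difference ran from 0.03 to 0.33. The median SE of a member's difference between genotypes was 0.15 at a single time, which sets the size of difference that 2 libraries a group could show.

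The difference between the genotypes in the LPS response was tested as an interaction. At 4 hr no member was called (limma, 0 of 87 at an unadjusted p under 0.05; called among all genes 0%). At 8 hr none was called either (called among all genes 0%), with 17 of 87 members and 2405 of 11885 genes at an unadjusted p under 0.05. The share of members at that p was near the share of all genes. Of those 17 members, 12 had the lower log2 fold change in S513A, among them 6 eIF3 genes, and 5 the higher. The split by direction over all genes is not given, so this split cannot be read as a result about the members. A lower value can be a smaller rise or a larger fall. The smallest adjusted p was that of Eif4ebp1, the repressor of eIF4E, at 0.193. It read 5.69 and 6.13 in WT and 6.50 and 6.24 in S513A at 0 hr, 6.08 and 5.55 in WT and 5.86 and 6.26 in S513A at 4 hr, and 6.14 and 6.25 in WT against 5.12 and 5.70 in S513A at 8 hr. S513A was lower than WT in both libraries at 8 hr and higher in both at 0 hr, giving a log2 fold change of 0.29 in WT, -0.96 in S513A and an interaction of -1.26 ± 0.34. For Eif2s1 the interaction was -0.66 ± 0.26 (adjusted p = 0.214, limma).

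The cytosolic ribosomal protein genes also had a lower response in S513A at 8 hr. Their 82 tested genes had a median interaction of -1.53 (limma), with 79 at an unadjusted p under 0.05 and none called. Their mean was lowest in the first S513A library at 8 hr (6.79), and their part in the members' differences was not tested. Without the second S513A library at 8 hr, 4 members were called in the interaction.

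**Figure D4:**
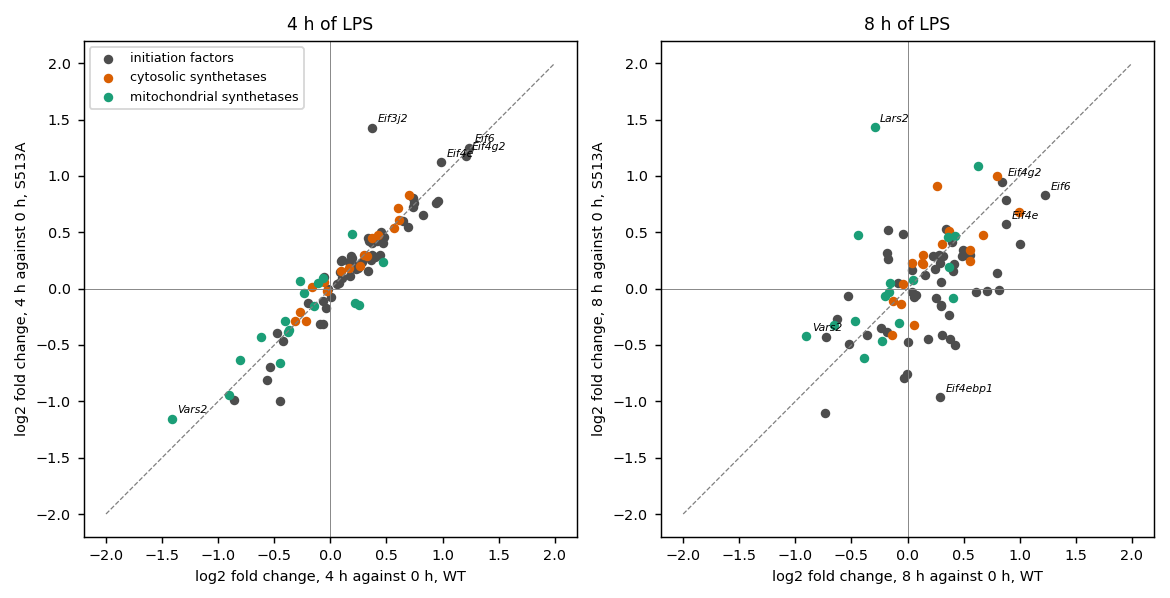
Log2 fold change of each of the 87 members against 0 hr in WT (horizontal axis) and in S513A (vertical axis) at 4 hr (left) and 8 hr (right), each from 2 libraries against 2, with initiation factors in dark grey, cytosolic synthetases in orange and mitochondrial synthetases in green; the dashed line marks equal responses. At 4 hr most points lie near the line, apart from Eif3j2, and at 8 hr they scatter more, with Lars2 (1.43 in S513A) and Eif4ebp1 (-0.96 in S513A) far from it.

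Genes that work around the members were read in 6 lists. Over all genes tested, 29.1% rose and 26.7% fell at 4 hr, and 24.5% rose and 21.6% fell at 8 hr. The counts of each list stand beside these shares. Of 24 regulators of initiation, 9 rose and 7 fell at 4 hr. The regulators that fell include Pdcd4, an inhibitor of the eIF4A helicase (-2.81 ± 0.15), and Mknk2, a kinase of eIF4E (-2.34 ± 0.09). Those that rose include Ppp1r15a, the phosphatase subunit that removes the phosphate from eIF2 alpha (1.66 ± 0.08), Denr, a factor of reinitiation (1.40 ± 0.15), and Eif2ak2, the double-stranded RNA kinase left out of the rule (2.63 ± 0.08). At 8 hr Pdcd4 still gave -2.11 ± 0.15, Mknk2 -1.26 ± 0.09 and Ppp1r15a 1.52 ± 0.08.

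Of 19 genes of the ATF4 pathway 9 rose and 4 fell at 4 hr, beside 29.1% and 26.7% of all genes. The amino acid carriers Slc7a11 (3.18 ± 0.10) and Slc3a2 (1.43 ± 0.08), the serine enzyme Phgdh (1.56 ± 0.14) and Atf4 itself (0.41 ± 0.08) rose. The stress genes Trib3 (-1.04 ± 0.23), Ddit3 (-0.48 ± 0.11) and Sesn2 (-0.54 ± 0.16) fell, so the list did not move as a whole. Of 7 synthetase genes and scaffolds that the symbol rule leaves out, 2 rose and 1 fell at 4 hr and 4 rose and 1 fell at 8 hr. Eef1e1, a scaffold of the multi-synthetase complex, rose by 1.32 ± 0.16 and Tarsl2, a second threonyl-tRNA synthetase, fell by 1.71 ± 0.18 at 4 hr. Eprs, for glutamate and proline, gave 0.09 ± 0.07 at 4 hr and rose by 0.43 ± 0.07 at 8 hr.

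Of 14 elongation and termination genes, 5 rose and 2 fell at 4 hr, beside 29.1% and 26.7% of all genes. The release factors Gspt1 (1.08 ± 0.07) and Etf1 (0.77 ± 0.08) rose, and Eef2k, the kinase that slows elongation through eEF2, fell by 2.02 ± 0.15. Among 82 cytosolic ribosomal protein genes 2 rose and none fell at 4 hr, with a median of 0.13, and 1 rose and 1 fell at 8 hr, with a median of -0.21. Among 77 mitochondrial ribosomal protein genes 14 rose and 2 fell at 4 hr, with a median of 0.08, where the mitochondrial synthetases had none that rose and 6 that fell. These lists differ in size and in spread between libraries, and no test compared them.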

How the data were processed

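RNA-seq libraries of PECs, 2 for each of 6 groups of genotype and time, were used. The authors mapped reads on mm10 with HISAT2 and counted them with featureCounts (1.6.3, per the labels). They deposited log2 CPM values, the log2 of reads plus 0.5 over an effective library size, which was 0.88 to 1.15 times the sum of the reads. Whole reads were recovered from these values, with a largest departure of 0.00145 read. The program behind that scaling, the annotation used for counting and how the listed genes were selected are not given in the sources used here. Exon lengths and gene positions came from GENCODE M21 and promoters from RefSeq (GRCm38.p6); the annotation of the authors may differ.

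The deposited log2 values were fitted with limma 3.58.1 in R 4.3.3: a mean for each of the 6 groups, with 6 residual degrees of freedom and variances moderated along a trend in mean level. A gene entered the fit if 2 or more libraries reached 1 CPM (11885 of 12850). Tests were two-sided, and p values were adjusted by Benjamini-Hochberg over all genes tested. The fit was tested on simulated data. Alternatives were other scalings, filters, priors and weights, a further pseudocount, a replicate block and leaving out each library; scaling by the sum of reads was added after the data were seen. In each role, up to 3 members with the largest change that passed were named, with 15 named whatever their values and the 3 with the smallest p between genotypes. The members, roles and gene lists were chosen with earlier results of these data known. The floor of 3 reads corresponds to a log2 CPM of -2.04 to -1.30, for counting error only. A further promoter window is not reported here.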

Additional observations from a re-analysis of the deposited data

How the results depend on the processing

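The counts of members called at 4 and 8 hr against 0 hr in the mean of the genotypes stayed within 1.5 times of the value reported under each alternative, but their direction followed the scale. With scaling by the sum of reads 16 rose and 27 fell at 4 hr and 22 fell at 8 hr, and with quantile normalization 17 rose and 22 fell at 8 hr. Between 4 and 8 hr, 5 fell with quantile normalization and 4 with scaling by the sum of reads, and 7 rose when only the groups compared were fitted. Fitted in that way, with fewer residual degrees of freedom, WT at 4 hr had 21 members called, and 7 were called between the genotypes at 0 hr. The shares of all genes called in these fits are not given. Eif1 at 8 hr turned to -0.0226 with quantile normalization; the cause was not tested. Leaving out each library in turn gave 40 to 54 calls at 4 hr (28 to 40 higher, 12 to 16 lower), 33 to 46 at 8 hr (23 to 32 higher, 9 to 14 lower) and 6 to 34 between them (4 to 12 higher, 2 to 23 lower). Within genotypes it gave 21 to 41 (WT, 4 hr), 22 to 39 (S513A, 4 hr), 9 to 38 (WT, 8 hr) and 11 to 37 (S513A, 8 hr). It gave 0 to 1 between the genotypes at 8 hr and 0 to 4 in the interaction at 8 hr. Where it leaves a group with 1 library, that library is assumed to vary like the others.

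Libraries of the same replicate number did not deviate together in all pairs (correlations of -0.36 to 0.15 within WT and of -0.12 to 0.76 within S513A), so the numbers were not used to pair them. With a replicate block 46 members were called at 4 hr, 39 at 8 hr and 18 between them, and with a block within genotype 49, 42 and 20. No block changed a count by over 1.5 times. Of the single gene results under all alternatives, 1666 kept their call and direction, 122 lost the call and 1 turned.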
